A study of Mus musculus with 3072 samples.

Results

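The Zfp36 family of RNA-binding proteins was examined through its genes Zfp36, Zfp36l1 and Zfp36l2, which were 3 of 55291 gene symbols in the count matrix and were found there by symbol. They were chosen by a measured value, the level of Zfp36l2, which was higher in CFU cells of platelet-depleted mice, so the values of that comparison are given below as a description without a test. The study asked how blood formation changes after acute platelet depletion in mice whose transplanted stem cells carried RNA barcodes. Wild-type (WT) C57BL/6 mice were used in both arms, and bone marrow was sampled from 4 control mice at week 32 and from 4 depleted mice at week 28 after transplantation. Treatment, week and experiment code coincided, so they cannot be told apart. Single cells were sorted into 3 populations, for which the labels give the short names HSC, CFU and MkP only, and were sequenced with Smart-seq2, a full-length method without molecular identifiers. The mouse was read from the code that opens each sample title.

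Zfp36 proteins (Zfp36 is also called tristetraprolin) bind AU-rich elements in the 3′ untranslated region of messenger RNAs through a pair of CCCH zinc fingers. They recruit the CCR4-NOT deadenylase and decapping factors, which shortens the life of the bound messenger. Zfp36 is an immediate-early gene that serum and inflammatory signals induce quickly, Zfp36l1 and Zfp36l2 act together in lymphocyte development, and Zfp36l2 is known for roles in blood stem cells and in the self-renewal of early erythroid progenitors.

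The mRNAs of all 3 members hold the high-affinity binding nonamer of their own protein family once in their 3′ untranslated region. The sites are shown because they are the element through which these proteins act. They were read 5′ to 3′ from GENCODE M21, with the nonamer in capitals and 10 bases on each side.
Zfp36: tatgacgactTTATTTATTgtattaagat
Zfp36l1: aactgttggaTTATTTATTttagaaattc
Zfp36l2: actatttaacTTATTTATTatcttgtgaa
The nonamer stood at bases 589 to 597 of 774 in Zfp36, at 1404 to 1412 of 1835 in Zfp36l1 and from base 821 of 1822 in Zfp36l2. In the same annotation (GRCm38), Zfp36 (ENSMUSG00000044786.6) lies on the minus strand at chr7:28376784-28380253. Zfp36l1 (ENSMUSG00000021127.7) lies on the minus strand at chr12:80107754-80113013. Zfp36l2 (ENSMUSG00000045817.8) lies on the minus strand at chr17:84183931-84187947. The authors' build is not given in the sources used here, and these positions served for the sequences and the gene lengths only.

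Promoters are shown because Zfp36 was compared below with immediate-early genes. They are RefSeq sequences of GRCm38.p6, 250 bases before the start on the minus strand, at chr7:28379229-28379478 for Zfp36 and chr12:80113014-80113263 for Zfp36l1. RefSeq and GENCODE use different starts for Zfp36, and its window lies inside the GENCODE gene given above. Capitals mark motif matches.
Zfp36: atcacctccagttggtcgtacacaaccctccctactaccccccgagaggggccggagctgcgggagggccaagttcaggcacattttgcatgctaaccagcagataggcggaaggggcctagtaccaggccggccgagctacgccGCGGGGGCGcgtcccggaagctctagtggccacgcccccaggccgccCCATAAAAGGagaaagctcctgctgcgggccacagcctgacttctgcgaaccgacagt
Zfp36l1: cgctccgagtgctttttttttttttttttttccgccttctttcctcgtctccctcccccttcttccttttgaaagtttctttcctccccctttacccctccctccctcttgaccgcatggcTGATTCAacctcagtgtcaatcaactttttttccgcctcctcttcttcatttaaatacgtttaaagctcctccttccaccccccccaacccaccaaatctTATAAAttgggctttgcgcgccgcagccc
Both strands were searched for 6 motifs. Zfp36 held a CArG box, the serum response factor motif, at 58 to 49 bases before the start and an EGR motif (GCGGGGGCG) at 105 to 97. Zfp36l1 held TGATTCA, a match to the loose AP-1 pattern searched (TGANTCA, N being any base), at 129 to 123. It also held a TATA box (TATAAA) at 29 to 24. Of 32851 promoter windows of this length, 1.47% held a CArG box, 2.57% the EGR motif, 6.75% the AP-1 pattern and 12.4% the TATA box. The CRE motif TGACGTCA stood in 1.55% of windows and AGATAA, the motif of GATA factors, in 9.99%, and neither was in these 2 windows.

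After filtering, 697 HSC, 647 CFU and 1324 MkP cells remained, and their counts were summed per mouse and population into 24 sums of 68792249 to 327869432 counts. Levels are given as CPM, counts scaled to the library total, with library totals adjusted by trimmed mean of M-values (TMM) unless stated otherwise. TMM was not applied to the summed CPM of marker genes. Nor was it applied to CPM within Mki67 or hemoglobin classes, of plates or of single cells. The labels were checked against marker genes. The summed CPM of 14 erythroid genes was 11405 to 15833 in CFU, against at most 2837 in HSC and 2188 in MkP. For 12 megakaryocyte genes it was 4302 to 6671 in MkP, 1577 to 2096 in HSC and 30.2 to 48.1 in CFU, and for 12 stem cell genes it was 2265 to 3291 in HSC and at most 101 in CFU. The CFU cells therefore carried erythroid markers. The authors' deposited table of wells lists 93 wells of control mouse 2's CFU plate as MkP, but the summed CFU markers of that mouse (13706 erythroid, 48.1 megakaryocyte) were far from those of MkP. In 5 of 8 mice the CFU sums also held 11.4 to 3993 CPM of 12 neutrophil and myeloid genes, against 2.08 to 3.51 in the other 3, and this is taken up with Zfp36 below.

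The family's composition differed between the populations. Zfp36 and Zfp36l2 were the more abundant members in HSC and MkP, and Zfp36l1 was the most abundant in CFU. Per kilobase of exon, HSC held 82.9 ± 24.1 CPM of Zfp36, 42.7 ± 13.3 of Zfp36l2 and 8.34 ± 1.07 of Zfp36l1 (SD, n = 8 mice). CFU held 1.96 ± 1.96 of Zfp36, 14.9 ± 3.24 of Zfp36l1 and 5.95 ± 1.67 of Zfp36l2. MkP held 44.9 ± 26.9 of Zfp36, 23.8 ± 5.69 of Zfp36l2 and 15.1 ± 2.88 of Zfp36l1. As a share of the family per kilobase, Zfp36 made up 51.1 to 70.6% in the HSC of every mouse and Zfp36l2 24.3 to 39.3%, without overlap. In CFU Zfp36l1 made up 54.1 to 80.9% and Zfp36l2 16 to 37.7%, again without overlap, while Zfp36l2 and Zfp36 (2.97 to 20.8%) overlapped. In MkP the share of Zfp36 was 35 to 67.5%, that of Zfp36l2 19.6 to 44.4% and that of Zfp36l1 12.9 to 22.8%, and neighbours in this order overlapped.

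**Figure D1:**
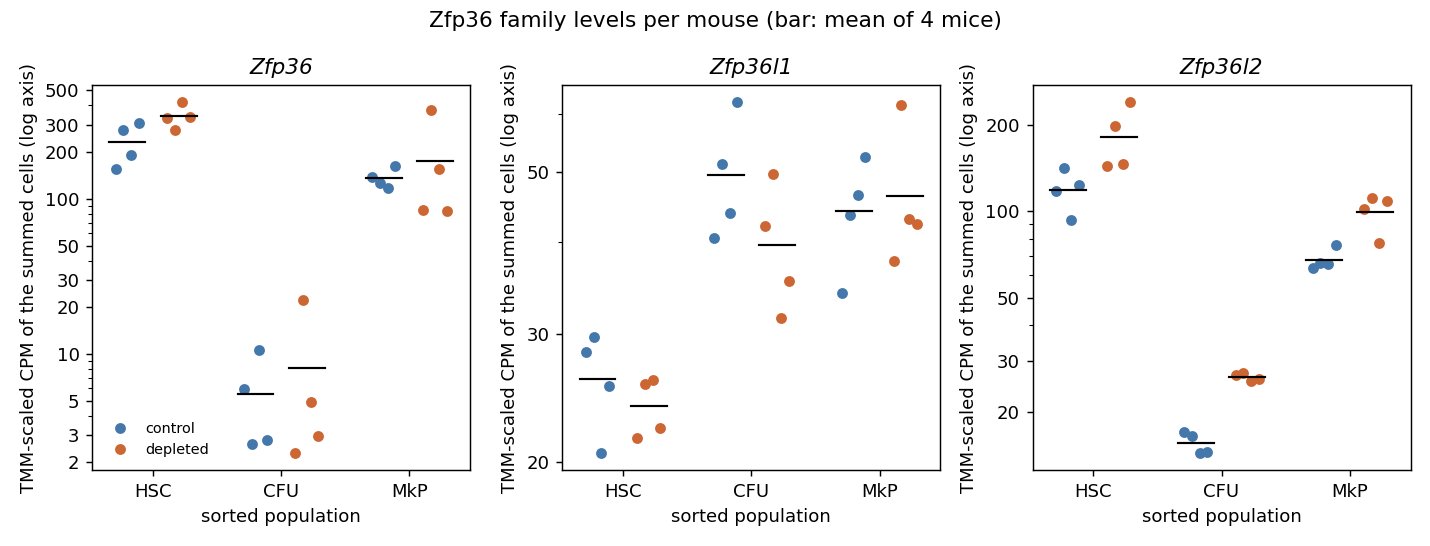
TMM-scaled CPM (log axis) of Zfp36, Zfp36l1 and Zfp36l2 in HSC, CFU and MkP; each point is 1 mouse, blue control and orange depleted, left to right mouse 1 to 4, and bars are means of 4 mice. Zfp36 and Zfp36l2 are lowest in CFU, Zfp36l1 is lowest in HSC, and Zfp36l2 of the depleted mice (26.4 against 15.6 CPM in CFU) lies above that of the controls in every population.

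Zfp36, the founding member, was at a low level in CFU. Its HSC levels were 155, 278, 193 and 308 CPM in control mice 1 to 4 and 333, 278, 418 and 338 CPM in depleted mice 1 to 4. In MkP they were 138, 127, 118 and 163 CPM in the controls and 85.2, 376, 155 and 83.9 CPM in the depleted mice, of which depleted mouse 2 stood far above the rest. In CFU they were 5.93, 2.62, 10.6 and 2.80 CPM in the controls and 2.31, 22.2, 4.90 and 2.95 CPM in the depleted mice. All 8 CFU values lay below every HSC and MkP value. Groups of 8 sums did not overlap for 33.8% of genes between CFU and HSC, 28.4% between CFU and MkP and 11.4% between MkP and HSC. Zfp36 was 42.4-fold lower in CFU than in HSC (log2 fold change -5.41, SE 0.48; edgeR's quasi-likelihood test, Benjamini-Hochberg adjusted p = 8.49e-10). It was lower in CFU than in MkP by -4.54 on the log2 scale (SE 0.46; edgeR's quasi-likelihood test, adjusted p = 1.42e-08). In cells thinned to 20000 counts these log2 fold changes were smaller, -4.52 and -3.67, and still past the threshold (edgeR adjusted p = 1.74e-11 and 2.41e-09). Without depleted mouse 2 the fall from HSC was larger (-6.00, edgeR adjusted p = 3.73e-11). Of 20852 genes tested, edgeR called 63.5% in CFU against HSC and 53.4% in CFU against MkP at an adjusted p of 0.05, so a call in these comparisons was common. Between MkP and HSC, where 29.9% of genes were called, the log2 fold change of Zfp36 was -0.87 (SE 0.40) and did not pass (edgeR's quasi-likelihood test, adjusted p = 0.110). It passed with the mouse as a block (-1.12, edgeR adjusted p = 0.0191), in thinned cells (-0.85, edgeR adjusted p = 0.0222) and without depleted mouse 2 (-1.24, edgeR adjusted p = 0.00540).

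Zfp36l1, a paralogue that also promotes decay of AU-rich messengers, ran the other way. In HSC it was 28.4, 29.6, 20.6 and 25.4 CPM in control mice and 21.6, 25.6, 25.9 and 22.3 CPM in depleted mice. In CFU it was 40.5, 51.2, 43.9 and 62.2 CPM in the controls and 42.1, 49.6, 31.6 and 35.4 CPM in the depleted mice, and in MkP 34.1, 43.6, 46.5 and 52.4 CPM and 37.8, 61.7, 43.1 and 42.5 CPM. Every CFU and MkP value lay above every HSC value. It was higher in MkP than in HSC by 0.86 on the log2 scale (SE 0.13; edgeR's quasi-likelihood test, adjusted p = 1.75e-05; 8 of 8 mice), a comparison in which 16.8% of genes were called higher. It was higher in CFU than in HSC by 0.83 (SE 0.13; edgeR's quasi-likelihood test, adjusted p = 5.44e-06), where 27.7% of genes were called higher. In thinned cells that value was 0.43 (edgeR adjusted p = 0.0113), and without TMM it was 0.42, still past the threshold (edgeR adjusted p = 0.00782), while the median of all genes moved from -0.27 to -0.68. CFU and MkP did not differ detectably (-0.03, SE 0.13; edgeR's quasi-likelihood test, adjusted p = 0.872), but CFU was lower without TMM (-0.36, edgeR adjusted p = 0.0263), where the median of all genes moved from -0.25 to -0.57, and in cells thinned to 20000 counts with TMM kept (-0.44, edgeR adjusted p = 0.00755), where that median was -0.19.

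Zfp36l2, the member named for stem cell and erythroid progenitor roles, was highest in HSC, intermediate in MkP and lowest in CFU. In control mice 1 to 4 it was 118, 142, 93.3 and 124 CPM in HSC, 63.3, 66.1, 65.6 and 76.6 CPM in MkP and 16.9, 16.5, 14.4 and 14.5 CPM in CFU. In depleted mice 1 to 4 it was 144, 199, 147 and 240 CPM in HSC, 102, 111, 77.8 and 108 CPM in MkP and 26.9, 27.2, 25.6 and 26 CPM in CFU. CFU did not overlap with the other populations, and MkP overlapped with HSC only between treatment arms. It was 7.26-fold lower in CFU than in HSC (log2 fold change -2.86, SE 0.11; edgeR's quasi-likelihood test, adjusted p = 6.33e-16) and 4.06-fold lower than in MkP (-2.02, SE 0.11; edgeR's quasi-likelihood test, adjusted p = 2.78e-13), comparisons in which 35.8% and 31.1% of genes were called lower. From HSC to MkP it fell by 0.84 on the log2 scale (SE 0.10; edgeR's quasi-likelihood test, adjusted p = 1.62e-06; lower in 8 of 8 mice), where 13.1% of genes were called lower.

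Detection in single cells gave the same order as the levels for Zfp36 and Zfp36l2. With every cell thinned to 20000 counts, Zfp36 was counted in 72.6% of HSC, 7.29% of CFU and 58.5% of MkP, Zfp36l2 in 82.4%, 24.6% and 64.9%, and Zfp36l1 in 30.4%, 41.8% and 45.4% (means of 8 mice). Of 9 differences between populations, 8 passed an exact two-sided sign-flip test over the 8 mice (Benjamini-Hochberg adjusted p = 0.0117 to 0.0176, with 0.0078 the lowest unadjusted p that 8 mice allow). The exception was Zfp36l1 between CFU and MkP, at -3.56 percentage points in CFU (exact adjusted p = 0.195), and this turned to 13.5 points higher in cells thinned to 100000 counts (exact adjusted p = 0.00879). At 20000 counts, all 3 members were counted together in 19% of HSC, 19.9% of MkP and 0.732% of CFU cells. None of them was counted in 4.06% of HSC, 10.2% of MkP and 39.2% of CFU cells. These shares depend on the thinning. Without it Zfp36 was counted in 49.8% of CFU cells, Zfp36l1 in 93.9% and Zfp36l2 in 88.6%. Counts were concentrated in few cells: the tenth of CFU cells with the most Zfp36 held 81.5% of its counts in controls and 91% in depleted mice, against 43% and 40.1% in HSC. For Zfp36l2 in CFU the same shares were 43.1% and 35.3%.

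**Figure D2:**
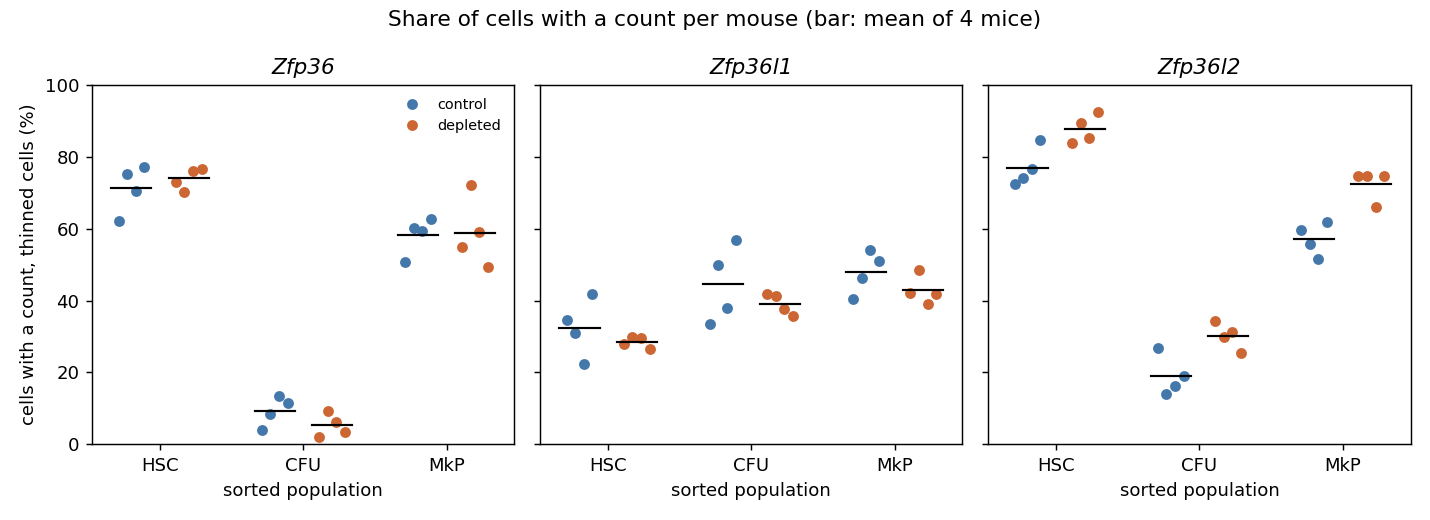
Percent of cells with at least 1 count of Zfp36, Zfp36l1 and Zfp36l2 after thinning every cell to 20000 counts, by population; each point is 1 mouse, blue control and orange depleted, and bars are means of 4 mice. Zfp36 is in 7.29% of CFU cells on average against 72.6% of HSC, and Zfp36l2 in MkP separates the depleted (66 to 74.7%) from the control mice (51.6 to 62%).

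Most CFU cells had counts of Klf1, the erythroid transcription factor, but in 5 of 8 mice 42.6 to 81.9% of the Zfp36 counts lay in the few cells without them. After thinning, 630 of 647 CFU cells had a Klf1 count and 17 had none, 10 of them in control and 7 in depleted mice. Those 17 cells held 51.1, 0, 54.7 and 0% of the Zfp36 counts of control mice 1 to 4 and 0, 81.9, 49.3 and 42.6% of those of depleted mice 1 to 4. Single cells weighed heavily in these mice. The cell with the most Zfp36 held 47.8 and 19.4% of its counts in control mice 1 and 3. In depleted mice 2, 3 and 4 it held 52.2, 49.2 and 42.6%, and depleted mouse 4 had only 1 cell without Klf1. The CFU sums with 834 to 3993 CPM of the neutrophil and myeloid list, those of control mice 1 and 3 and depleted mice 2 and 4, all included cells without Klf1. Depleted mouse 2 also held 193.8 CPM of B-cell genes, at most 3.74 in the others. In Klf1-positive cells Zfp36 was 2.56, 2.23, 4.11 and 2.43 CPM in controls and 2.01, 3.31, 2.25 and 1.34 CPM in depleted mice, without TMM. On these cells alone the fall of Zfp36 from HSC to CFU was larger, -6.54 on the log2 scale (edgeR's quasi-likelihood test, adjusted p = 7.58e-14), while those of Zfp36l1 (0.85) and Zfp36l2 (-2.91) stayed close to the values above. These cells were set apart after the data were seen.

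**Figure D3:**
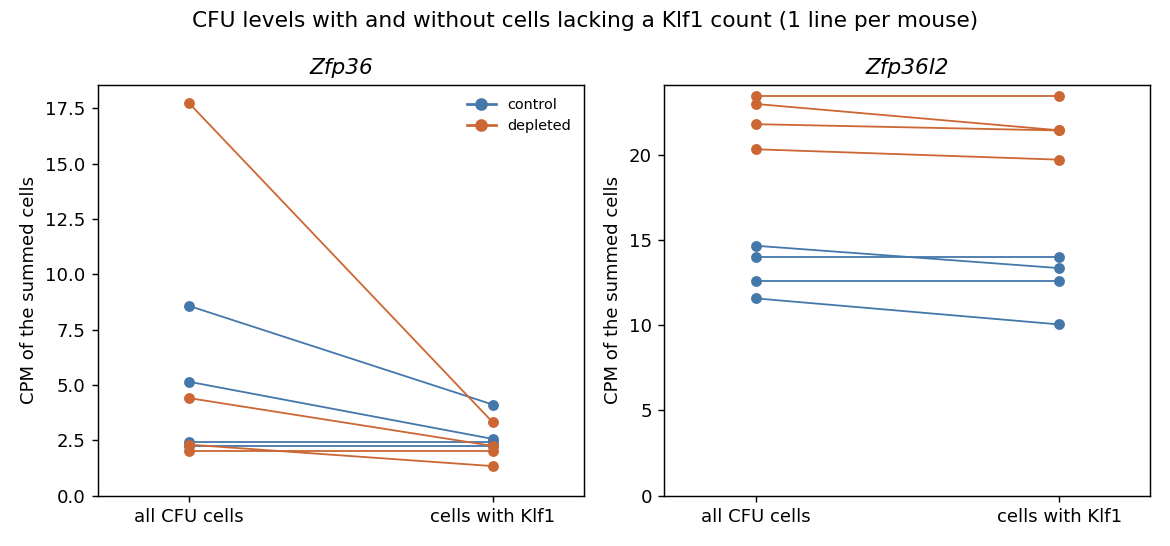
CPM (without TMM) of Zfp36 and Zfp36l2 in the summed CFU cells of each mouse, with all cells and with only the 630 cells that had a Klf1 count; 1 line per mouse, blue control and orange depleted. Zfp36 of depleted mouse 2 falls from 17.7 to 3.31 CPM, whereas Zfp36l2 keeps depleted (19.7 to 23.4) above control mice (10.1 to 14).

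In CFU cells, the comparison that chose the family, Zfp36l2 was 26.9, 27.2, 25.6 and 26 CPM in depleted and 16.9, 16.5, 14.4 and 14.5 CPM in control mice, means of 26.4 ± 0.79 and 15.6 ± 1.31 (SD, n = 4). This is a log2 difference of 0.70 (SE 0.12), or 1.63-fold, and it lay between 0.67 and 0.76 under the alternatives. Of 15661 genes edgeR called 0.0% (0 genes, 1857 at an unadjusted p under 0.05, DESeq2 472). Of the same genes 5.61% were higher in depleted mice without overlap and 4.35% lower; 0.146% of genes were higher without overlap in all 3 populations, Zfp36l2 among them. Nothing is read from these shares, since Zfp36l2 was chosen on this comparison. In cells thinned as for the shares above, Zfp36l2 was counted in 30.2% of depleted and 18.9% of control CFU cells, with overlap between the groups. Without thinning it was counted in 89.9% of depleted and 87.3% of control CFU cells. These groups also overlapped, at 87.4 to 94.3% and 83.8 to 92.4%. The median of Zfp36l2 over single CFU cells was 15.3 CPM in depleted and 5.85 CPM in control mice. In cells with Klf1 the log2 difference was 0.74 (SE 0.13). Zfp36l1 went the other way by -0.38 (SE 0.17), with overlap between the groups. Zfp36 was 0.47 higher (SE 0.75) and overlapped, but -0.41 (SE 0.38) in cells with Klf1, so its direction turned when the cells without Klf1 were left out.

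The choice of genes did not use HSC and MkP, but these came from the same mice, weeks and experiment codes as CFU. They are therefore not an independent check. In HSC and MkP, Zfp36l2 was 1.5-fold and 1.49-fold higher in depleted mice, without passing the adjusted threshold. In HSC it was 182 ± 46 CPM in depleted and 119 ± 20.1 CPM in control mice, a log2 difference of 0.59 (SE 0.20; 1.5-fold; edgeR's quasi-likelihood test, p = 0.0143, adjusted p = 0.467). All 4 depleted values lay above all 4 control values, though by only 144 against 142 CPM, and 2.96% of 17146 genes were higher and 5.13% lower without overlap. In MkP it was 99.8 ± 15.1 CPM against 67.9 ± 5.91 CPM, a log2 difference of 0.57 (SE 0.13; 1.49-fold; edgeR's quasi-likelihood test, p = 0.00121, adjusted p = 0.154). The MkP groups did not overlap either, and 4.29% of 18512 genes were higher and 5.03% lower without overlap. DESeq2 gave an adjusted p of 0.00193 for Zfp36l2 in MkP, which passed, and 0.0813 in HSC. Across all genes edgeR called 0.0% in HSC (0 genes, 1467 at an unadjusted p under 0.05, DESeq2 267) and 0.0108% in MkP (2 genes, 2532 at an unadjusted p under 0.05, DESeq2 955).

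Zfp36 in HSC was 342 ± 57.7 CPM in depleted and 234 ± 71.5 CPM in control mice (log2 difference 0.53, SE 0.22; edgeR's quasi-likelihood test, p = 0.0390, adjusted p = 0.562), and the groups overlapped. Zfp36 in MkP differed by 0.37 (SE 0.43; edgeR's quasi-likelihood test, adjusted p = 0.765) and turned to -0.32 without depleted mouse 2. Zfp36l1 differed by -0.15 in HSC (SE 0.19; edgeR's quasi-likelihood test, adjusted p = 0.877) and by 0.08 in MkP (SE 0.18; edgeR's quasi-likelihood test, adjusted p = 0.887), with overlap in both. The difference between the MkP and HSC treatment effects was -0.19 for Zfp36, 0.19 for Zfp36l1 and -0.06 for Zfp36l2 (SE 0.83, 0.26 and 0.21; edgeR's quasi-likelihood test, adjusted p = 1.0 for all 3), where 0.0144% of 20852 genes were called.

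In the share of cells, 0 of 6 treatment differences in HSC and MkP passed an exact permutation test after adjustment, and 1 of 6 was under 0.05 before it. The largest was Zfp36l2 in MkP, 74.7, 74.6, 66 and 74.7% of cells in depleted mice 1 to 4 and 59.6, 55.7, 51.6 and 62% in control mice. The groups did not overlap, and the exact two-sided permutation test gave p = 0.0286, the lowest that 4 against 4 mice allow, and an adjusted p of 0.171. In HSC Zfp36l2 was counted in 87.8% of depleted and 77% of control cells (exact permutation p = 0.0571, adjusted p = 0.171), with overlap. In cells thinned to 100000 counts the HSC groups did not overlap (95.7 to 98.9% in depleted and 91.3 to 93.7% in control mice). Without thinning nearly all cells had a Zfp36l2 count, and the groups overlapped in both populations. The shares were then 99.7% in depleted and 99.4% in control HSC, and 98.5% and 97.4% in MkP. MkP cells came from 2 plates per mouse: Zfp36l2 was 57.3 to 93.7 CPM over the control and 86.9 to 122 CPM over the depleted plates, and these ranges overlapped. The plates of 1 mouse differed by a median of 0.16 and up to 0.50 on the log2 scale, by 0.50, 0.08, 0.39 and 0.48 in control mice 1 to 4 and by at most 0.17 in the depleted mice, beside a treatment difference of 0.57.

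Other values moved with the treatment. Mki67, a marker of cycling cells, was counted in 14.4% of control and 7.02% of depleted HSC and in 48.4% and 34% of MkP, and the part of this in the Zfp36l2 difference was not tested. Within the classes Zfp36l2 in MkP was 68 CPM in control and 93.5 CPM in depleted cells with Mki67, and 73 and 117 CPM in cells without. The median number of genes per MkP cell was 5509 to 6180 in depleted and 6557 to 7172 in control mice, without overlap, and per HSC 5330 to 5758 and 5700 to 6808, with overlap. In HSC the summed CPM of the 12 neutrophil and myeloid genes was 476, 380, 504 and 893 in depleted mice 1 to 4, highest in the mouse with the most Zfp36l2, against 309 to 338 in the controls, with 8 and 5 of the genes over 1 CPM and Ly6g at 0 in the controls. The summed CPM of 8 macrophage and monocyte genes in HSC was lower in depleted mice (14 to 24.3 against 33.8 to 120). That of a list of 8 genes named early erythroid was higher in depleted mice in every population, without overlap. It was 2616 to 3322 against 2246 to 2560 in HSC and 2463 to 2821 against 1849 to 2023 in MkP. In CFU it was 1011 to 1254 against 729 to 884. This list was thus lowest in CFU, the population with erythroid markers, and its level is not a measure of erythroid identity here. The median number of genes per CFU cell was 7579 to 8242 in depleted and 8301 to 8508.5 in control mice, without overlap. The part of these values in the Zfp36l2 difference was not tested.

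For Zfp36 in MkP, 2 gene lists were highest in the mouse with the most Zfp36, depleted mouse 2. The summed CPM of 25 immediate-early genes, with TMM, was 3003, 7665, 4512 and 2207 in depleted mice 1 to 4 and 3222 to 3610 in the controls. That of 6 mast cell and basophil genes, without TMM, was 865 in depleted mouse 2 and 19.6 to 70.5 in the other 7 mice. All 6 genes were over 1 CPM in the depleted group, and 2 in the controls, where Prss34 was at 0. Their part in the Zfp36 level was not tested.

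Zfp36 was lower in cycling cells. In MkP it was 112 ± 59.2 CPM in the 542 cells with a Mki67 count and 211 ± 116 CPM in the 782 without, a mean log2 ratio of -0.90 over mice (SD 0.40; lower in 8 of 8; exact sign-flip test, adjusted p = 0.0176). The 8 MkP ratios ran from -1.35 to -0.04, and 7 of them were at or below -0.78. In HSC, with 73 cycling cells, the ratio was -1.10 (SD 0.57; lower in 7 of 8; exact adjusted p = 0.0281), and this no longer passed (adjusted p = 0.0563) when control mouse 4 or depleted mouse 1, 2 or 4 was left out. Zfp36l1 was lower in cycling MkP by -0.30 (8 of 8 mice; exact adjusted p = 0.0176). Zfp36l2 was -0.22 in MkP (exact adjusted p = 0.100) and -0.24 in HSC (0.299), and it passed in thinned cells (-0.27 and -0.37; exact adjusted p = 0.0402 in both).

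**Figure D4:**
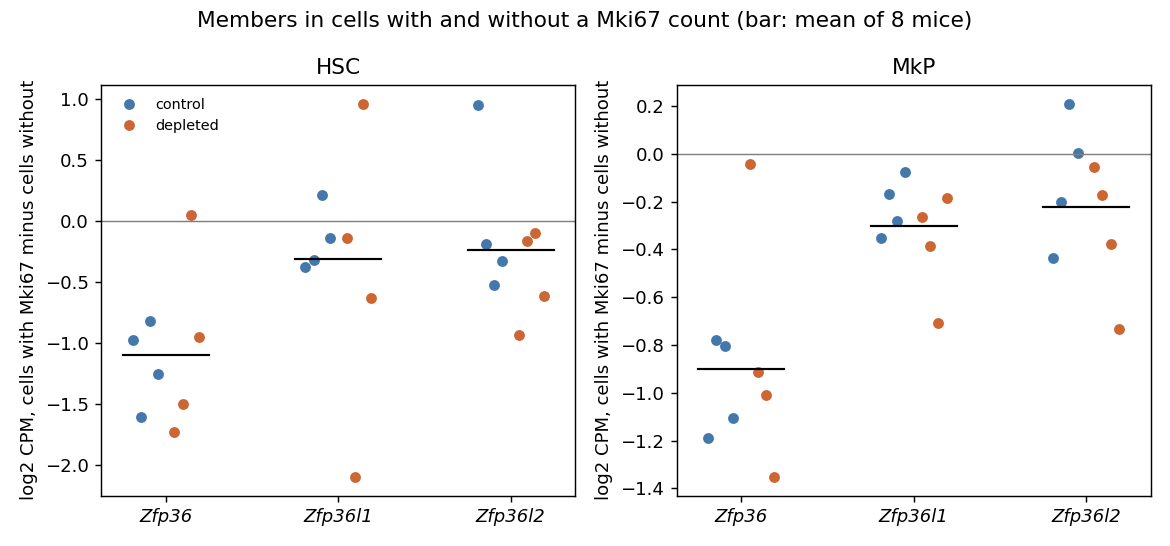
Log2 ratio of CPM in cells with a Mki67 count to cells without one, for Zfp36, Zfp36l1 and Zfp36l2 in HSC and MkP; each point is 1 mouse, blue control and orange depleted, bars are means of 8 mice, and the line marks equal levels. Zfp36 lies below 0 in every MkP (mean -0.90); the HSC points, from 73 cells with Mki67, run wider.

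Within CFU, cells were ordered in each mouse by the share of counts from hemoglobin genes, a measure of erythroid maturation. The 216 cells in the upper tertile were compared with the 217 in the lower one. The order rests on a small part of the counts, 0.0407 to 0.0742% in control and 0.0306 to 0.0722% in depleted mice. Hbb-bt, a hemoglobin gene, averaged 2.19 CPM in the lower and 156 CPM in the upper tertile. Kit, the receptor of early progenitors, was 234 CPM in the lower and 59.8 CPM in the upper tertile of controls, and 341 and 104 CPM in depleted mice. Zfp36l2 was 25, 17.6, 18.1 and 21.5 CPM in the lower tertile of control mice 1 to 4 and 6.05, 7.84, 6.98 and 6.36 CPM in the upper one. In depleted mice it was 36.7, 34.4, 34.6 and 26.3 CPM and 14.8, 17.3, 19.7 and 12.8 CPM. The upper tertile was lower in all 8 mice, by -1.31 on the log2 scale (SD 0.41; exact sign-flip test, adjusted p = 0.0176), and by -1.18 in cells with Klf1 (exact adjusted p = 0.0234). Zfp36 was lower by -1.99 (8 of 8 mice; exact adjusted p = 0.0176), but by only -0.56 and not past the threshold in cells with Klf1 (exact adjusted p = 0.0703). Zfp36l1 was higher by 0.35 (7 of 8 mice; exact adjusted p = 0.0352), and by 0.30, not past the threshold, in cells with Klf1 (exact adjusted p = 0.0703). Of the 647 cells, 60 lay within 10% of a tertile limit.

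**Figure D5:**
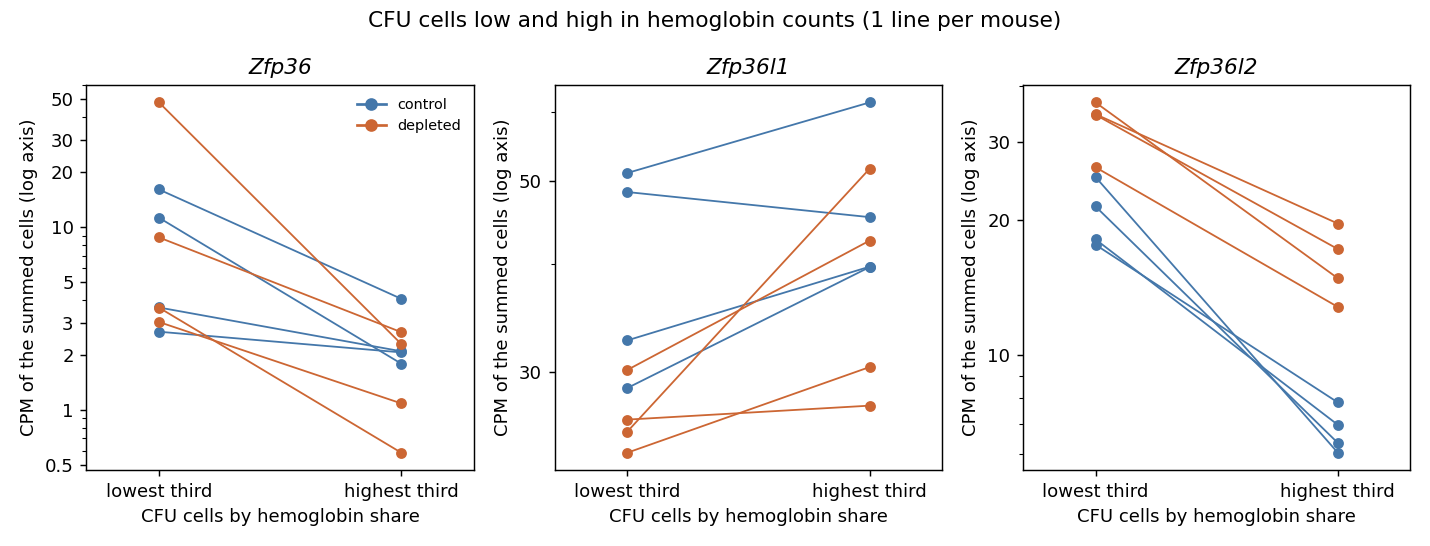
CPM (log axis, without TMM) of Zfp36, Zfp36l1 and Zfp36l2 in CFU cells with the lowest and highest share of hemoglobin counts; 1 line per mouse, blue control and orange depleted. All 8 Zfp36l2 lines fall, from 17.6 to 36.7 CPM down to 6.05 to 19.7 CPM, and the depleted lines lie above the control lines on both sides.

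The partners and targets of the family were described from gene lists by their counts. In CFU against HSC, of 28 decapping and decay genes 20 were called higher and 2 lower by edgeR (median log2 0.88; all genes -0.27), and 18 and 6 without TMM. Over all genes 27.7% were called higher and 35.8% lower in this comparison, against which each count here is to be read. Exosc8 (a subunit of the RNA exosome) was 2.28 higher and Dis3 (its nuclease) 1.75 higher. Of 17 deadenylation genes 7 were higher and 4 lower, but 4 and 8 without TMM; Cnot9 (CCR4-NOT subunit) was 1.53 higher and Btg1 (an antiproliferative deadenylase partner) 1.73 lower. Among 16 other AU-rich-element binding proteins, 8 were higher and 6 lower, with Khsrp at 1.52 and Hnrnpd at 1.39. Of 25 immediate-early genes 23 were tested, of which 21 were lower and 0 higher (median -3.85), and Zfp36 fell with them. Among immediate-early genes with a mean of at least 8 CPM over the sums, the largest falls were those of Nr4a1 (-9.06) and Socs3 (-7.90). Their CFU levels were 0.05 and 0.10 CPM. Of 9 glucocorticoid response genes, 7 were lower and 1 higher (median -1.46), with Tsc22d3, a glucocorticoid-induced regulator also called Gilz, at -4.83. In CFU, 16 of 27 tested targets named in earlier work were lower and 7 higher (median -1.42), with Bcl2, an apoptosis inhibitor, at -5.55 and E2f2, a cell cycle factor, at 3.34.

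In MkP against HSC the decapping list was higher in 17 of 28 and lower in 0 (median 0.37), where 16.8% of all genes were called higher and 13.1% lower. Cdk6, a cell cycle kinase among the targets named in earlier work, was 1.92 higher. Of 17 deadenylation genes 5 were higher and 2 lower. Among them Tob1, a deadenylation adaptor, was 1.54 lower. Btg2 of that list changed more and went the other way, at 197.8 CPM in MkP against 33.1 CPM in HSC. In CFU against MkP the kinase and 14-3-3 list was higher in 2 and lower in 10 of 17, where 22.3% of all genes were called higher and 31.1% lower. Dusp1, which switches off p38 signalling to the family, was -3.37 and Mapkapk2, a kinase of Zfp36, -1.23. In depleted against control mice edgeR called 0 genes of these lists in HSC, MkP or CFU, with 1 to 3 genes of a list at an unadjusted p under 0.05 in HSC and 0 to 6 in MkP; DESeq2 calls were not counted by list. Across their lists, those with an unadjusted p under 0.05 included Ccnd1, the cyclin D1 gene reported as a target, at -0.70 in HSC (edgeR's quasi-likelihood test, p = 0.0118, adjusted p = 0.456) and -0.93 in MkP (p = 0.00243, adjusted p = 0.176). Its CFU value of -1.29 is a description. Stat5b, of the same list, went the other way in MkP at 0.52 (edgeR's quasi-likelihood test, p = 0.00183, adjusted p = 0.168). By sign alone, 7 tested targets were higher and 18 lower in depleted HSC, and 17 and 9 in MkP. Among genes with an annotated 3′ untranslated region and fewer than 2 copies of the nonamer, 6720 were higher and 5450 lower in HSC. In MkP these counts were 7477 and 4958. The splits by sign were not tested. Ccnd1 held 0 copies of the nonamer TTATTTATT in its 3′ untranslated region, and Stat5b 1.

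Of 21020 genes with an annotated 3′ untranslated region, 424 held at least 2 copies of TTATTTATT. In CFU against HSC, 67 of the 275 tested were called higher and 127 lower (27.7% and 35.8% of all genes), with a median log2 of -0.59 against -0.18 for genes with fewer copies. In CFU against MkP it was 53 and 122 of 275, beside 22.3% and 31.1% of all genes (median -0.39 against -0.15). In MkP against HSC it was 48 and 47, beside 16.8% and 13.1% of all genes (median -0.06 against 0.01). Of 13444 tested genes with fewer copies, 4622 were higher and 5395 lower in CFU against HSC. The counts were 4005 and 4805 in CFU against MkP, and 2967 and 2304 in MkP against HSC. In these 3 comparisons 70.5%, 63.6% and 34.5% of genes with at least 2 copies were called either way, against 74.5%, 65.5% and 39.2% with fewer. In depleted against control mice edgeR called 0 in HSC, CFU or MkP (14 of 251 or 5.58% in HSC and 35 of 251 or 13.9% in MkP at an unadjusted p under 0.05, against 8.36% and 15.2% of genes with fewer copies; DESeq2 calls were not counted by list), with medians of 0.12, 0.04 and 0.09 against 0.04, 0.06 and 0.07 for genes with fewer copies. The members themselves hold 1 copy each.

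By the smallest root mean square difference of gene-centred log2 CPM over the 24 sums, among 9375 genes of at least 8 CPM, the genes nearest to Zfp36 were Sla2 (0.56), Ptpn18 (0.62) and Dennd2d (0.65), against a median of 2.75 over all genes. Nearest to Zfp36l1 were Mios (0.26), Cuta (0.27) and Dmac1 (0.27), median 0.63, and to Zfp36l2 Ctso (0.29), Ptk2b (0.29) and Vwa5a (0.30), median 1.44.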

How the data were processed

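Per the labels, marrow cells were sorted singly and made into Smart-seq2 libraries. The authors deposited raw counts per gene symbol. Per the submitters' processing notes, Trim Galore 0.5, STAR 2.6.0 and HTSeq 0.6.1 were used; neither a genome build nor an annotation is given in the sources used here. Among 3070 columns, 1 matched no sample and was not used. Cells with at least 20000 counts, 1000 genes and at most 20% mitochondrial counts were kept (2668 of 3069 wells), and summed per mouse and population. Smart-seq2 counts are reads, not molecules. The replicate is the mouse. edgeR 4.0.16 (quasi-likelihood, TMM, R 4.3.3) tested populations over all 24 sums and treatment within each population, with Benjamini-Hochberg adjustment over all genes tested; DESeq2 1.42.0 was an alternative, and the tests were checked on simulated data. The same mice gave all 3 populations: deviations of the same mouse correlated at 0.03 to 0.18 (median 0.085, 24 correlations) and of different mice at -0.17 to 0.11. Shares of cells used exact sign-flip and permutation tests. Named genes were at most the 3 called genes of each list with the largest change, or the 2 with the lowest p, and the 3 members. Genes named from a list had a mean of at least 8 CPM over the sums compared. The members and lists were chosen with earlier results of these data known. The Klf1 split was added after seeing the data.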

Additional observations from a re-analysis of the deposited data

Results flagged for a closer look

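In 36 groups of 4 mice checked with Dixon's test, of which chance marks about 1 in 20, 2 values stood apart from the rest of their group. Zfp36 in CFU of depleted mouse 2 was 22.2 CPM, against 2.31 to 4.90 CPM in the other depleted mice, and in Klf1-positive cells alone it was 3.31 CPM without TMM. The other was the 66% of MkP cells with a Zfp36l2 count in depleted mouse 3, against 74.6 to 74.7% in the other depleted mice.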

How the results depend on the processing

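The population counts called by edgeR stayed within 1.5 times of their values under every alternative except thinning. Thinning gave 8726 genes in CFU against HSC, but of 11354 genes tested rather than 20852. Leaving out 1 mouse gave 12846 to 13088 in CFU against HSC, 5465 to 5934 in MkP against HSC and 10641 to 10833 in CFU against MkP. The treatment counts depended on the tool. DESeq2 called 267 genes in HSC, 472 in CFU, 955 in MkP and 312 in the interaction, and edgeR on thinned cells 47, 22, 107 and 1. Leaving out 1 mouse gave 0 to 1 calls in MkP and in the interaction; the mouse as a replicate block gave 0 in the interaction. That block put Zfp36 in MkP against HSC past the threshold and is otherwise within 1.5 times of the counts above (6498, 13155 and 11296 for MkP against HSC, CFU against HSC and CFU against MkP). The causes were not tested. Of the class tests 4 to 6 passed when a mouse was left out, against 6. Signs turned in small differences: Zfp36l1 in CFU against MkP to 0.020, 0.023 and 0.0033 without depleted mouse 2, 3 or 4 (range -0.074 to 0.023 over mice left out), and its share of cells to 13.5 points at 100000 counts and 16.1 points without thinning; Zfp36 in depleted MkP to -0.32 without depleted mouse 2 (range -0.32 to 0.60); Zfp36l1 in depleted MkP to -0.19 thinned, -0.03 without control mouse 1 and -0.088 without depleted mouse 2; the interaction of Zfp36 to 0.024 and 0.034 without depleted mouse 1 or 4 (range -0.97 to 0.034), and of Zfp36l2 to 0.026 and 0.062 without control mouse 3 or depleted mouse 4 (range -0.17 to 0.062). The treatment difference in the share of cells with Zfp36 turned to -4.83 and -1.76 points in HSC and -6.12 and -5.70 points in MkP at 100000 counts and without thinning, to -0.28 and -1.74 points without control mouse 1, and to -3.67 points in MkP without depleted mouse 2; over mice left out it ran from -0.28 to 4.77 points in HSC and from -3.67 to 3.93 points in MkP. Zfp36l1 between Mki67 classes of HSC turned to 0.17 in thinned cells. With 4 mice an arm, an exact test cannot go below p = 0.0286 and small differences are not detectable.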
